A study of Mus musculus with 15 samples.

Results

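The circadian clock genes of mouse liver were examined here as a group of 10 genes, found by their symbols in the deposited count matrix: Arntl, Clock, Npas2, Per1, Per2, Per3, Cry1, Nr1d1, Dbp and Bhlhe41. They are 10 of 55573 genes in the matrix, and all 10 were among the 17655 that passed the filter on low counts. RNA-seq libraries were made from whole liver of 15 mice aged 8 weeks, 1 library per mouse. Wild type females (FWT, n = 3) and wild type males (MWT, n = 3) were littermates of females (FKO, n = 5) and males (MKO, n = 4) that lacked exon 3 of Esr1, the gene for oestrogen receptor alpha, and both genotypes carried the strain name B6N(Cg)-Esr1tm4.2Ksk/J. The deletion was present in every tissue and not in the liver alone, and testosterone is raised in knockouts of both sexes according to the study's text, so loss of the receptor in the liver and a changed hormonal state cannot be told apart. The time of day at which livers were taken is not given in the sources used here, nor whether it was the same for every mouse.

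The clock of a mammalian cell is a feedback loop of transcription. ARNTL (also called BMAL1) pairs with CLOCK, or with its relative NPAS2, and the pair binds E-boxes to switch on the Per and Cry genes, whose proteins then hold the pair back. NR1D1 (REV-ERB alpha) represses Arntl, the factor DBP carries the rhythm to output genes through D-boxes, and BHLHE41 (DEC2) represses E-box genes. In liver, feeding and hormones also act on these genes, and most of their transcripts rise and fall over each day, so the level in a mouse depends on the hour at which the tissue was taken.

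Total counts per library ran from 27799061 to 78624766. Esr1 separated the genotypes: in CPM (counts scaled to library size with TMM factors) it was 74.7, 88.2 and 82.8 in FWT and 25.0, 31.2 and 52.0 in MWT, and the 9 knockouts ran from 8.22 to 19.7, below every wild type mouse. Hepatocyte markers were high throughout (5 of 6 listed markers measured, summed 74020 to 107500 CPM), and those of Kupffer cells (summed 307.5 to 482.9 CPM) and cholangiocytes (3.12 to 5.50 CPM) were far lower. The libraries FKO1 and FKO2 stood apart from the other FKO libraries. After the group means had been subtracted, the first principal component carried 23.2% of the variance, with scores of 0.36 for FKO1 and 0.18 for FKO2 against -0.21 to -0.15 for FKO3 to FKO5 and -0.087 to 0.067 for the other 10 libraries. Relative to the FKO mean, the 20% of genes richest in GC lay below the 20% poorest in GC by a log2 difference of -0.60 in FKO1 and -0.26 in FKO2, against 0.26 to 0.31 in FKO3 to FKO5. Where leaving out these libraries ended a call named below, or added one for a member, the value without them is given. So are estimates of members that moved by over 1.5 times.

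Promoter sequence is shown for the 5 members that held a clock motif, because these motifs are the points at which members act on one another. RefSeq (GRCm38.p6) gave windows for 9 of the 10 genes, and the 250 bases before each start were searched on both strands. Capitals mark the E-box CACGTG, its variant CACGTT (written AACGTG where it lies on the opposite strand) and the D-box TTATGNAA. Per1 (chr11:69098699-69098948, plus strand) held an E-box at -166 to -161 and a D-box at -24 to -17, and Per3 (chr4:151044666-151044915, minus strand) held D-boxes at -205 to -198 and -158 to -151. Cry1 (chr10:85185055-85185304, minus strand) held the E-box at -60 to -55 beside its variant at -79 to -74, Nr1d1 (chr11:98775378-98775627, minus strand) held the variant at -28 to -23, and Bhlhe41 (chr6:145865421-145865670, minus strand) held an E-box at -153 to -148. Positions count back from the RefSeq start.
Per1: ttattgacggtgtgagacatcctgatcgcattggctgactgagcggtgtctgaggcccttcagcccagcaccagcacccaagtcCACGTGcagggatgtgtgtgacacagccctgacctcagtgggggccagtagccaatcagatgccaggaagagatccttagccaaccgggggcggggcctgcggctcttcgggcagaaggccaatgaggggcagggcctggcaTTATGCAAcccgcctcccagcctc
Per3: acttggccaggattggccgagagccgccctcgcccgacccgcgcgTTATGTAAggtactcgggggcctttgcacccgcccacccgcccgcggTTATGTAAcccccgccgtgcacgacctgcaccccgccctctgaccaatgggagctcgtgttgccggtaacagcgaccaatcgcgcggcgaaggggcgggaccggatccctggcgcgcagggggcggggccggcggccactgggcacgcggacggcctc
Cry1: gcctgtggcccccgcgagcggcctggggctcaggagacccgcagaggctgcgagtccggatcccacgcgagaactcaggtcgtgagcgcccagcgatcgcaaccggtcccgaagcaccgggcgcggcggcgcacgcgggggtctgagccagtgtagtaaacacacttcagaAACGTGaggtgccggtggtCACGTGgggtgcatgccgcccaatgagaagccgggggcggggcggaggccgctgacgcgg
Nr1d1: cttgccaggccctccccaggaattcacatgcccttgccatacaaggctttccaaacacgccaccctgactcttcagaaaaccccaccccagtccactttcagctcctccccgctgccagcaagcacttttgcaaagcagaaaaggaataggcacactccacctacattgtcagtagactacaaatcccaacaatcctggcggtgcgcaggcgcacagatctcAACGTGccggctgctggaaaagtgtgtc
Bhlhe41: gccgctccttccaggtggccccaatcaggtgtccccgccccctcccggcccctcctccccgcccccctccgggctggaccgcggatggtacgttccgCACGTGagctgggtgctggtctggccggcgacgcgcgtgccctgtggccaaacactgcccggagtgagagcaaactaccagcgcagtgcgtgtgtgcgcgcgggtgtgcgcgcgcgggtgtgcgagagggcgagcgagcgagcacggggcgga
Among 32851 promoter windows of the same length, 6.02% held the E-box, 3.85% its variant and 3.07% the D-box. The NR1D1 and ROR element TAGGTCA (2.23% of windows) and the oestrogen response element, GGTCA and TGACC with 3 bases between (0.0639%), were found in 0 of the member windows. Bases past each start were not searched, so an element there would be missed. A match describes letters in the window and no site of binding was measured.

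The 10 transcripts covered a wide range of abundance. Per kilobase of exon, the mean level over the 15 mice was highest for Dbp at 42.5 CPM per kb ± 7.20 (SD, n = 15), followed by Nr1d1 at 14.3 ± 5.11, Per3 at 10.2 ± 2.01 and Per2 at 7.61 ± 2.23. Per1 at 4.07 ± 1.57 and Clock at 3.82 ± 0.807 came next, then Cry1 at 2.12 ± 0.544, Bhlhe41 at 0.613 ± 0.326, Arntl at 0.242 ± 0.0853 and Npas2 at 0.0356 ± 0.0135. Neighbours in this order lay within 1 SD of each other's range from Nr1d1 to Per3, Per3 to Per2, Per2 to Per1, Per1 to Clock and Bhlhe41 to Arntl, while Dbp lay above Nr1d1 and Npas2 below Arntl by more than their spread. Exons of 4 members overlap a gene on the opposite strand: Nr1d1 (33285 counts over all libraries) shares 8.55% of its exon bases with Thra (6585 counts), Dbp (93737 counts) 18% with Sphk2 (20231 counts), Bhlhe41 (3083 counts) 19% with Gm43909 (47 counts) and Arntl (1334 counts) 0.439% with Gm45355 (1 count). Whether counting used strand is not given in the sources used here, so reads of such partners cannot be told apart. Npas2 was read from 3 to 14 counts per library and its values carry a counting error as large as most of the differences between groups.

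Members differed in how far mice of one group lay apart. The SD of log2 CPM within groups was 0.64 for Per1, 0.59 for Bhlhe41 and 0.56 for Nr1d1, wider than that of 96.1%, 94.5% and 93.5% of tested genes. Per3, with 0.18, was the narrowest, wider than 31.6% of genes. The median over the 10 members was 0.43, against 0.24 over all tested genes and 0.19 over 16 other clock genes.

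**Figure D1:**
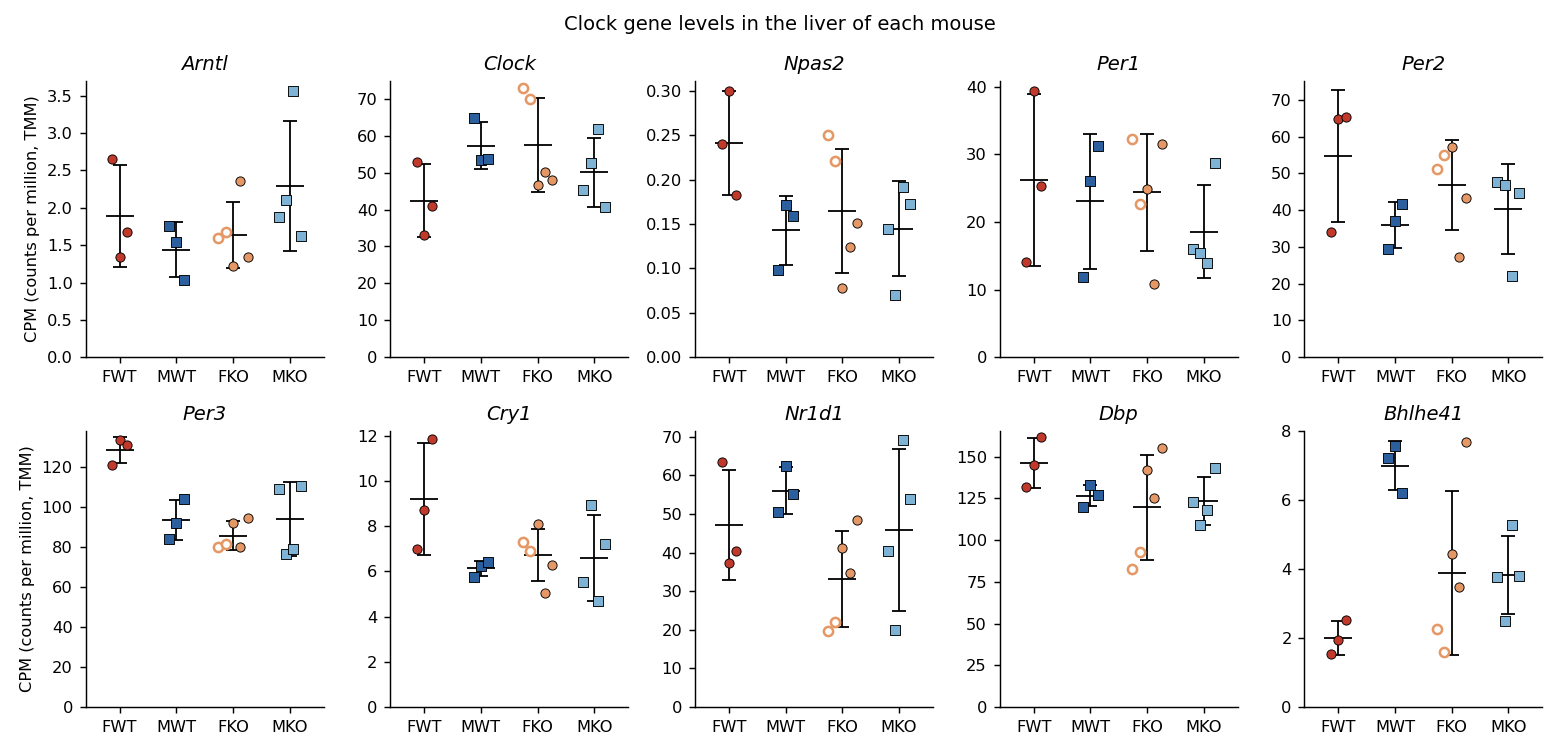
CPM of each member in each of the 15 mice, by group; horizontal lines are group means with SD, and open circles are FKO1 and FKO2. Bhlhe41 is lower in FWT than in MWT with no overlap, Per3 is higher in FWT than in FKO with no overlap, and FKO1 and FKO2 are the lowest FKO mice for Dbp, Nr1d1 and Bhlhe41.

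The activators were the least abundant part of the loop apart from Clock. Arntl measured 2.65, 1.34 and 1.67 CPM in FWT, 1.75, 1.54 and 1.03 in MWT, 1.59, 1.68, 1.23, 2.36 and 1.34 in FKO and 1.88, 2.10, 3.57 and 1.62 in MKO. The highest values, in MKO3, FWT1 and FKO4, came from 3 different groups, and the 4 groups overlapped. Clock, the partner with the larger pool of transcript, measured 52.9, 33.2 and 41.0 CPM in FWT, 64.8, 53.5 and 53.8 in MWT, 72.8, 70.0, 46.6, 50.3 and 48.0 in FKO and 45.2, 52.6, 61.8 and 40.6 in MKO. FKO1 and FKO2 held the highest Clock levels of all 15 mice. Npas2 ran from 0.183 to 0.300 CPM in FWT, 0.0988 to 0.171 in MWT, 0.0782 to 0.250 in FKO and 0.0700 to 0.192 in MKO.

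Among the Per and Cry members, Per3 and Per2 were the most abundant and Cry1 the least, below Clock. Per1 and Per2 were spread more widely within groups than Per3 and Cry1. Per1, whose transcript also answers to glucocorticoids, measured 14, 39.4 and 25.4 CPM in FWT, 11.9, 25.99 and 31.2 in MWT, 32.2, 22.6, 24.8, 10.8 and 31.5 in FKO and 15.9, 15.4, 13.97 and 28.8 in MKO. Per2 measured 34.1, 64.9 and 65.3 CPM in FWT, 29.4, 37.0 and 41.7 in MWT, 51.3, 55.2, 57.2, 27.3 and 43.5 in FKO and 47.7, 46.9, 22.01 and 44.8 in MKO. FWT1, MWT1, FKO4 and MKO3 were the lowest of their groups for Per1 and for Per2, and the same 4 mice were the highest of their groups for Arntl. Per3 measured 121, 133 and 131 CPM in FWT, 84.3, 92.2 and 104 in MWT, 80.1, 81.5, 92.2, 80.1 and 94.6 in FKO and 109, 76.7, 79.0 and 111 in MKO. All 3 FWT mice lay above the other 12. Cry1 ran from 6.98 to 11.9 CPM in FWT, 5.76 to 6.42 in MWT, 5.02 to 8.11 in FKO and 4.69 to 8.96 in MKO.

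Nr1d1, the output factor Dbp and Bhlhe41 were the members with the strongest relation to the library shift described above. Nr1d1 measured 63.6, 37.4 and 40.5 CPM in FWT, 50.4, 62.5 and 55.1 in MWT, 19.6, 22, 41.3, 34.6 and 48.4 in FKO and 40.4, 19.9, 69.1 and 54.0 in MKO. Dbp measured 132, 145 and 162 CPM in FWT, 120, 133 and 127 in MWT, 82.5, 92.6, 142, 125 and 156 in FKO and 123, 109, 118 and 143 in MKO. Bhlhe41 measured 1.55, 1.94 and 2.52 CPM in FWT, 7.21, 7.58 and 6.22 in MWT, 2.27, 1.60, 4.43, 3.49 and 7.68 in FKO and 3.76, 2.50, 5.28 and 3.79 in MKO. In all 3 genes FKO1 and FKO2 were the lowest of the 5 FKO mice. The correlation of each gene's group-centred log2 CPM with the first principal component over the 15 libraries was -0.77 for Dbp, -0.65 for Nr1d1 and -0.65 for Bhlhe41, 0.58 for Npas2, 0.48 for Per2, 0.45 for Per1, 0.44 for Clock, 0.34 for Cry1, -0.22 for Arntl and -0.085 for Per3, given as a description because the component was computed from the same libraries. The part of library composition in these levels was not tested.

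**Figure D2:**
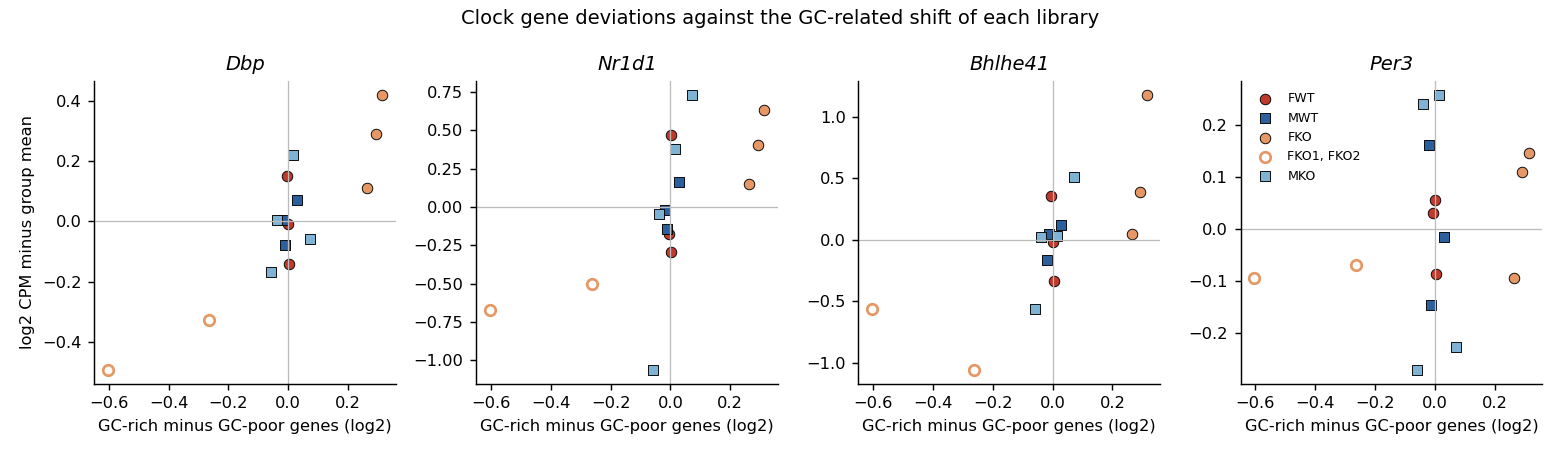
Group-centred log2 CPM of Dbp, Nr1d1, Bhlhe41 and Per3 in each mouse (vertical axes) against the median log2 difference between the 20% GC-richest and the 20% GC-poorest genes of its library (horizontal axis), with open circles for FKO1 and FKO2. FKO1 (-0.60) and FKO2 (-0.26) lie at the left and low for Dbp, Nr1d1 and Bhlhe41, while FKO3 to FKO5 lie at the right and above the group mean.

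The sex difference in wild type liver asks which members differ between FWT and MWT with an intact receptor. Of the 10 members 1 passed an adjusted p of 0.05 in edgeR's quasi-likelihood test over all genes, against 4.87% of all genes tested. Bhlhe41 (ENSMUSG00000030256, chr6:145858243-145865558 in GRCm38, minus strand), a repressor of E-box genes, was lower in females, with a log2 fold change of -1.81 (SE 0.42) and an adjusted p of 0.017 in edgeR, that is 0.285 of the male level (95% interval 0.154 to 0.529). By an unadjusted p under 0.05, 4 members passed (17.3% of all genes), and by DESeq2 1 (6.94%), which was Bhlhe41 (adjusted p = 0.000245). In edgeR its call was lost when FWT1, FWT2, MWT1 or MWT2 was left out, with adjusted p from 0.052 to 0.085 and log2 fold changes from -1.79 to -1.65. Bhlhe41, Clock, Npas2, Per3 and Cry1, 5 of the 10, did not overlap between the 2 groups, against 30.1% of all genes. Per3 had a log2 difference of 0.46 (SE 0.14) and an adjusted p of 0.085 in edgeR, which became 0.027 when only the wild type groups were fitted. Cry1 had 0.58 (SE 0.23, adjusted p = 0.19 in edgeR), Clock -0.44 (SE 0.20, adjusted p = 0.28) and Per2 0.60 (SE 0.30, adjusted p = 0.33). The other 4, Arntl (0.41), Npas2 (0.73), Per1 (0.18) and Dbp (0.21), had estimates above 0, and Nr1d1 had -0.25, each with an edgeR adjusted p above that of Clock. The median log2 difference over the members was 0.31, against 0.014 over all genes tested.

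Markers of other cells differed between the same groups. Of 4 cholangiocyte markers, Epcam was higher (log2 fold change 1.08, adjusted p = 0.0066 in edgeR) and Sox9 lower (-1.03, adjusted p = 0.038) in FWT, while their summed levels overlapped (3.12 to 4.33 CPM in FWT and 3.29 to 4.31 in MWT). Of 5 red cell markers, Alas2, the erythroid enzyme of haem synthesis, was lower in FWT (-2.97, adjusted p = 2.26e-06 in edgeR), and the sums were 76.8 to 546 CPM in FWT and 341.1 to 688.3 in MWT. Of 5 hepatocyte markers Alb was higher in FWT (0.66, adjusted p = 0.038 in edgeR). It was the only 1 of the 5 with an estimate above 0 (median -0.25), and 3 of the 5 passed in DESeq2. None of the Kupffer (5), endothelial (5), stellate (5) or lymphocyte (5) markers passed in this comparison in edgeR, with 1, 0, 1 and 0 of them at an unadjusted p under 0.05 and 0 of each in DESeq2. Their part in the difference of Bhlhe41 was not tested. In bulk liver, fewer cells that express a gene and less RNA per cell cannot be told apart.

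**Figure D3:**
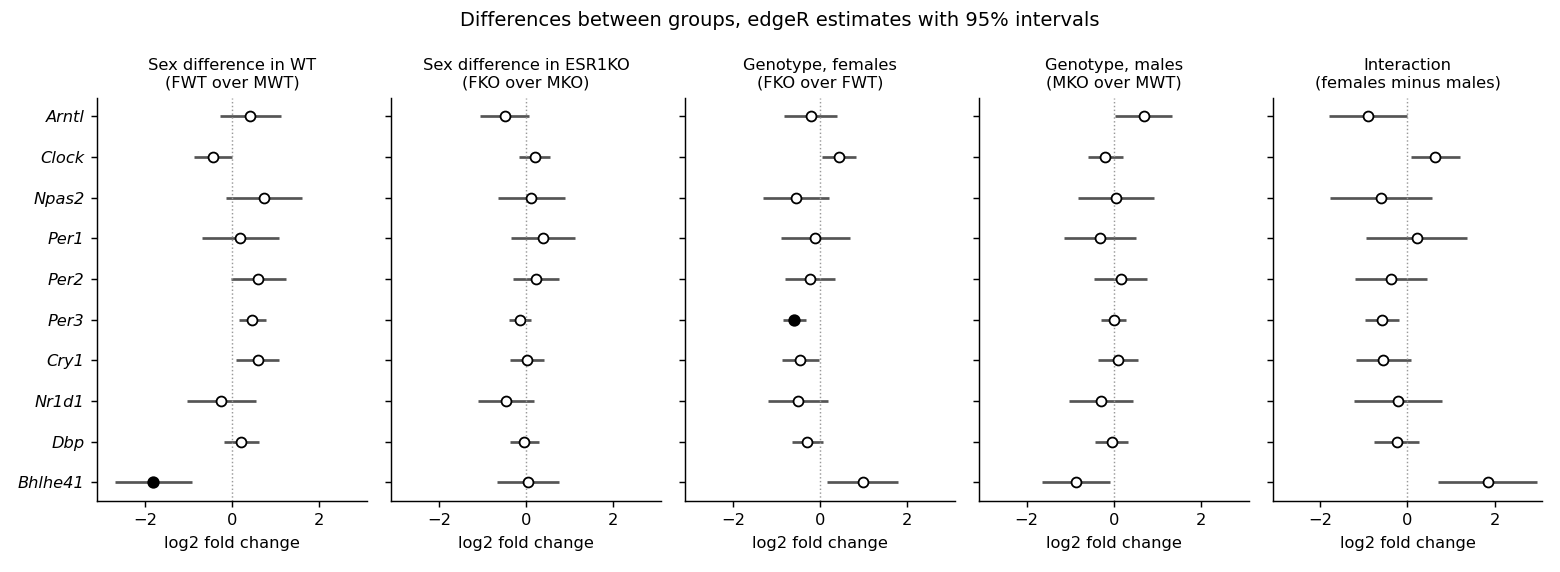
Log2 fold changes of the 10 members (horizontal axes) with 95% intervals from edgeR, in the sex and genotype comparisons and their interaction. Filled points passed an adjusted p of 0.05: Bhlhe41 in the wild type sex difference (-1.81) and Per3 in females (-0.59).

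The sex difference among knockouts compares FKO with MKO. No member passed in edgeR (0 of 10, against 0.272% of all genes), 0 had an unadjusted p under 0.05 (17.5% of all genes) and 0 passed in DESeq2 (2.58%), and 0 of 10 separated the groups without overlap, against 5.22% of all genes. Bhlhe41 had a log2 difference of 0.037 (SE 0.33, 95% interval -0.67 to 0.74). It was 0.45 (SE 0.27, adjusted p = 0.54 in edgeR) without FKO1 and FKO2. Of the cell type markers, Vsig4 of the 5 for Kupffer cells passed here (0.61, adjusted p = 0.021 in edgeR). All 5 Kupffer markers had estimates above 0 (median 0.46), 4 had an unadjusted p under 0.05 and 4 passed in DESeq2. Without FKO1 and FKO2, Adgre1 of the same 5 passed too (0.53, adjusted p = 0.040 in edgeR). Among the members, the largest estimates were those of Arntl at -0.49 (SE 0.27, adjusted p = 0.35), Nr1d1 at -0.47 (SE 0.30, adjusted p = 0.43) and Per1 at 0.39 (SE 0.35, adjusted p = 0.56). Clock (0.20), Per2 (0.22), Npas2 (0.12), Per3 (-0.13), Dbp (-0.044) and Cry1 (0.022) completed the list. With FKO1 and FKO2 left out, Nr1d1 was at -0.15, Clock at -0.052, Per2 at 0.080, Per3 at -0.077, Dbp at 0.19 and Cry1 at -0.036, and 0 members passed in edgeR. The median over the members was 0.030, against 0.011 over all genes tested.

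The genotype effect in females compares FKO with FWT. Per3 (ENSMUSG00000028957, chr4:151003652-151044665 in GRCm38, minus strand), whose protein takes part in the repressor complex, was the 1 member of 10 that passed, against 5.71% of all genes tested, and fell by 0.59 on the log2 scale (SE 0.13, adjusted p = 0.013 in edgeR), to 0.667 of the wild type level (95% interval 0.553 to 0.803). It was lower in 5 of 5 FKO mice than in every FWT mouse, the only member without overlap, as for 15.6% of all genes. DESeq2 called 1 member (8.7% of all genes), also Per3 (adjusted p = 0.000789), and 4 had an unadjusted p under 0.05 in edgeR (22.5%). Leaving out FWT2 or FWT3 gave an adjusted p of 0.062 or 0.063 with log2 changes of -0.56 and -0.57. The change was -0.53 (SE 0.14, adjusted p = 0.047 in edgeR) without FKO1 and FKO2, and r of Per3 with the first principal component was -0.085. Por, the cytochrome P450 reductase and a gene of the clock output list, also fell (-0.96, adjusted p = 0.030), from a mean of 539 ± 46.2 CPM (SD, n = 3) to 277 ± 84.2 (SD, n = 5). Of 10 clock output genes it was the only one to pass, with 2 at an unadjusted p under 0.05, and its call was lost without FKO1 and FKO2 (-0.70, adjusted p = 0.11).

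Bhlhe41 was higher in FKO3 to FKO5 than in every FWT mouse, but not in FKO1 and FKO2. With all libraries its log2 fold change was 0.99 (SE 0.39, adjusted p = 0.14 in edgeR). FKO1, at 2.27 CPM, and FKO2, at 1.60 CPM, lay within the FWT range of 1.55 to 2.52. Without the 2 libraries it was 1.395 (SE 0.30, adjusted p = 0.019 in edgeR, with 4.47% of genes called in that fit), and the 3 remaining FKO mice ran from 3.49 to 7.68 CPM. With no filter on low counts it passed with all libraries (adjusted p = 0.048). With 1 mouse left out it passed in 0 of 15 fits, with adjusted p from 0.073 to 0.36, and without FKO5, the highest FKO mouse, the estimate was 0.57 (SE 0.31, adjusted p = 0.25). The other members had estimates of 0.44 for Clock (SE 0.18, adjusted p = 0.17), -0.45 for Cry1 (SE 0.20, adjusted p = 0.20), -0.51 for Nr1d1 (SE 0.33), -0.55 for Npas2 (SE 0.36), -0.29 for Dbp (SE 0.17), -0.22 for Per2 (SE 0.27), -0.21 for Arntl (SE 0.29) and -0.10 for Per1 (SE 0.37). With FKO1 and FKO2 left out, Clock was at 0.19, Nr1d1 at -0.19, Dbp at -0.053, Per2 at -0.36, Per1 at -0.23 and Arntl at -0.21, while Cry1 was at -0.51 (adjusted p = 0.26). Npas2 then no longer passed the filter. The median over the members was -0.26 in the fit of all libraries, against -0.0013 over all genes tested.

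The genotype effect in males compares MKO with MWT. No member passed in edgeR (0 of 10, against 1.42% of all genes) or in DESeq2 (0 of 10, against 2.83%), and 2 had an unadjusted p under 0.05 (11.9% of all genes). These were Arntl at 0.69 (SE 0.31, adjusted p = 0.39 in edgeR) and Bhlhe41 at -0.86 (SE 0.37, adjusted p = 0.36 in edgeR). Bhlhe41 was lower in 4 of 4 MKO mice than in every MWT mouse, the 1 member without overlap, as for 15.9% of all genes. Per3 had a log2 difference of 0.0049 (SE 0.13, 95% interval -0.28 to 0.29), and of 0.0024 without FKO1 and FKO2. Per1 (-0.31), Nr1d1 (-0.29), Clock (-0.20), Per2 (0.16), Cry1 (0.11), Npas2 (0.052) and Dbp (-0.039) had SEs from 0.18 to 0.41. In the same comparison 2 of 4 cholangiocyte markers were higher in MKO, Epcam (0.95, adjusted p = 0.030 in edgeR) and Krt19 (1.23, adjusted p = 0.031). Of the 4, 3 had estimates above 0, and Krt7 and Sox9 did not pass. Sox9 averaged 1.57 ± 0.47 CPM in MKO (SD, n = 4) and 1.88 ± 0.68 in MWT (SD, n = 3). Cela1, the 1 of 5 pancreas markers abundant enough to test, was lower (-0.99, adjusted p = 0.0080). The other pancreas markers, Cpa1, Ctrb1, Pnlip and Prss2, reached at most 0.036 CPM in any mouse. Cela1 was also lower in females without FKO1 and FKO2 (-0.67, adjusted p = 0.049 in edgeR). The median over the members was -0.017, against -0.0011 over all genes.

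The interaction asks whether the genotype effect differs between the sexes, as the change in females minus that in males on the log2 scale. No member passed in edgeR, against 1.94% of all genes, 4 had an unadjusted p under 0.05 (14.3%) and 1 passed in DESeq2 (3.36%). Bhlhe41 had 1.85 (SE 0.54), with an adjusted p of 0.11 in edgeR and 0.016 in DESeq2. Per3 had -0.59 (SE 0.19), with an adjusted p of 0.15 in edgeR and 0.080 in DESeq2. Clock had 0.64 (SE 0.26, adjusted p = 0.29) and Arntl -0.90 (SE 0.42, adjusted p = 0.35). Bhlhe41 passed in edgeR without FKO1 and FKO2, at 2.26 (SE 0.40, adjusted p = 0.0079, with 2.39% of genes called), and so it did without FKO2 alone (adjusted p = 0.035) or with no filter (adjusted p = 0.0062), while Per3 was at -0.53 (SE 0.19, adjusted p = 0.21), Clock at 0.38, Per2 at -0.52, Per1 at 0.088, Nr1d1 at 0.0995 and Dbp at -0.012. Cry1 (-0.56), Npas2 (-0.61), Per2 (-0.39), Dbp (-0.25), Nr1d1 (-0.22) and Per1 (0.21) had adjusted p of 0.40 and above. Averaged over both sexes, no member passed in edgeR (4.13% of all genes), 1 had an unadjusted p under 0.05 (19.4%), 1 passed in DESeq2 (7.04%), and the largest change by p was that of Per3 at -0.29 (SE 0.093, adjusted p = 0.090 in edgeR and 0.042 in DESeq2). Without FKO1 and FKO2, Nr1d1 over both sexes moved from -0.40 to -0.24, Dbp from -0.16 to -0.047, Per2 from -0.032 to -0.10 and Bhlhe41 from 0.062 to 0.27. None of these passed in edgeR in either fit. The comparisons share groups, so they are not independent of one another.

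Levels of members also moved with one another from mouse to mouse. Among mice of one group, those with more Arntl had less Per1, Per2 and Per3. The test took log2 CPM with each group's mean subtracted and compared it with all 103680 arrangements of mice within groups, an exact permutation test, two-sided, with p-values adjusted over 9 partners. Pearson's r with Arntl was -0.88 for Per2 (exact permutation p = 0.0031, adjusted 0.0094), -0.81 for Per1 (exact permutation p = 0.0019, adjusted 0.0086) and -0.73 for Per3 (exact permutation p = 0.0011, adjusted 0.0086), over 15 mice. Spearman's rho was -0.70, -0.81 and -0.79, with permutation p-values of 0.025, 0.017 and 0.0043 after adjustment. Leaving out FKO4 and MKO3, the mice farthest from the median of Arntl, gave r of -0.77, -0.80 and -0.68. In the 13 mice without FKO1 and FKO2, r was -0.93, -0.85 and -0.75, each with an adjusted exact permutation p of 0.0078. The relation of Per3 did not hold when group means were left in (r = -0.28, permutation p = 0.56 after adjustment), and its adjusted p was 0.065 without MKO4.

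**Figure D4:**
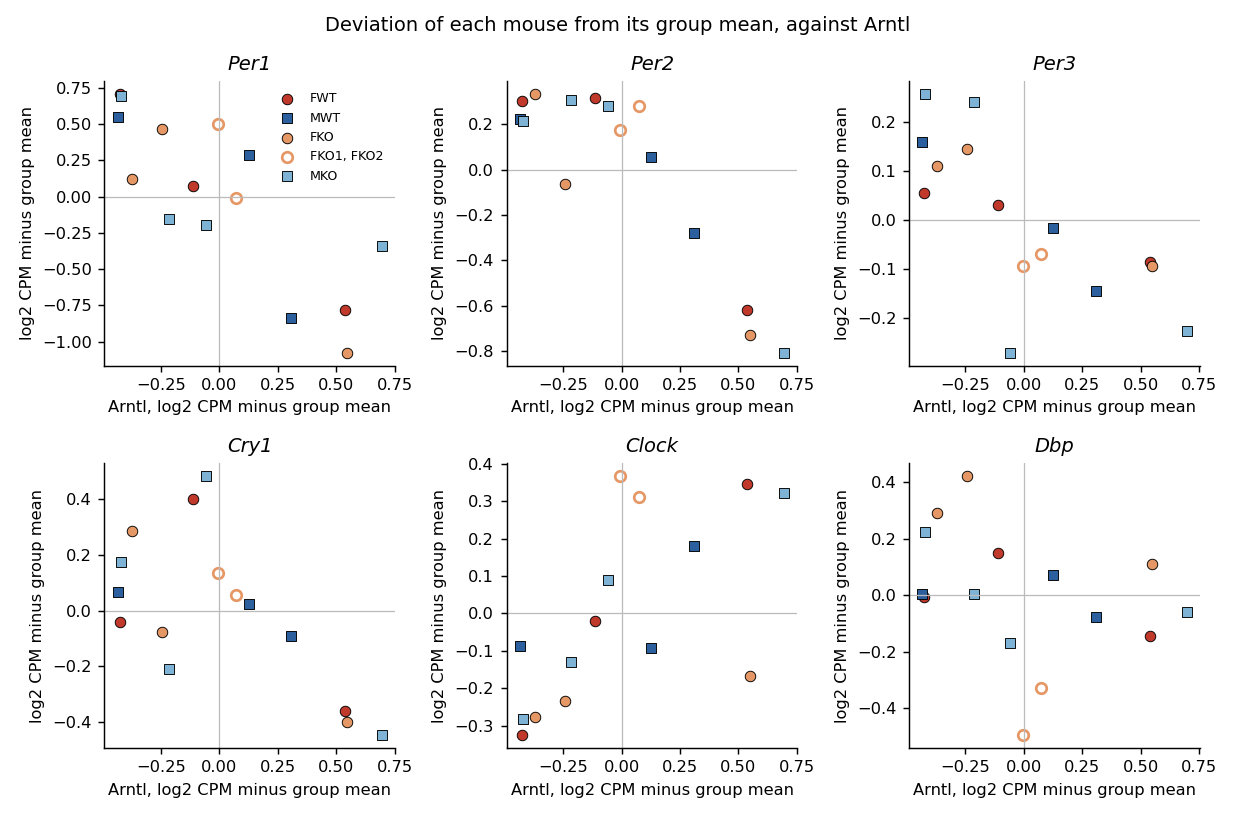
Deviation of each mouse from its group mean in log2 CPM for Per1, Per2, Per3, Cry1, Clock and Dbp (vertical axes) against that of Arntl (horizontal axis), with open circles for FKO1 and FKO2. Points for Per1, Per2 and Per3 fall from upper left to lower right (r of -0.81, -0.88 and -0.73), and in Clock FKO1 and FKO2 lie above the rising line of the other mice.

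Clock, the partner of Arntl, rose with it, with r of 0.65 (exact permutation p = 0.024, adjusted 0.053), and at 0.84 without FKO1 and FKO2 (adjusted exact permutation p = 0.0069). Cry1 had -0.64 (exact permutation p = 0.036, adjusted 0.066), which was -0.39 without FKO4 and MKO3. Dbp had -0.33 (exact permutation p = 0.25), Nr1d1 0.21 (exact permutation p = 0.54), Bhlhe41 -0.080 (exact permutation p = 0.79) and Npas2 0.059 (exact permutation p = 0.85). Dbp stood at -0.60 without FKO1 and FKO2 (exact permutation p = 0.082, adjusted 0.12). The values per mouse show the same mice at the extremes: FWT1, FKO4 and MKO3 lay 0.54, 0.55 and 0.70 above their group means in log2 Arntl, and stood at -0.62, -0.73 and -0.81 from them in Per2.

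Among all 45 pairs of members, given as a description over the same 15 mice, the strongest positive relations were Dbp with Bhlhe41 (r = 0.83), Per2 with Cry1 (0.81), Nr1d1 with Bhlhe41 (0.71) and Per1 with Per2 (0.71). The strongest negative ones, apart from those of Arntl, were Clock with Dbp (-0.80) and Clock with Per3 (-0.70). Without FKO1 and FKO2, r of Dbp was 0.66 with Bhlhe41, -0.60 with Clock, 0.35 with Nr1d1, 0.75 with Per1 and 0.73 with Per3, where over all 15 mice it was 0.64 with Nr1d1, 0.15 with Per1 and 0.56 with Per3.

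**Figure D5:**
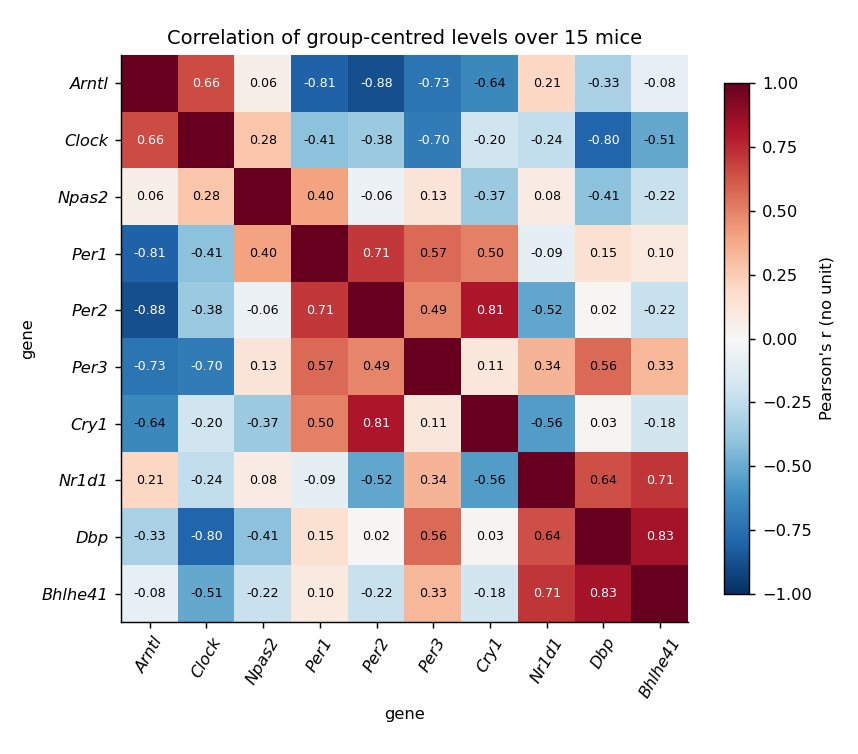
Pearson's r (no unit) between each pair of the 10 members over 15 mice, on log2 CPM with group means subtracted, in a matrix with genes on both axes. Arntl is negative with Per1 (-0.81), Per2 (-0.88), Per3 (-0.73) and Cry1 (-0.64), and Dbp, Nr1d1 and Bhlhe41 are positive with one another (0.64 to 0.83), where Dbp with Nr1d1 is at 0.35 without FKO1 and FKO2.

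The genes most like Arntl among the 11640 genes whose log2 CPM averaged 1 or more were Insig2, a retention factor of sterol sensing in the endoplasmic reticulum (r = 0.96), Acss3 (0.85), Pkp2 (0.84), Clpx (0.84) and AC149090.1 (0.83). The most opposite were Chd7 (-0.89), Fam120b (-0.89), Per2 (-0.88), Shb (-0.87) and Parp16 (-0.86), so that Per2 was among the 5 lowest of the order. Ciart, a repressor of the ARNTL and CLOCK pair, had r of -0.83. With FKO1 and FKO2 left out, Insig2 was again first (r = 0.96), but the other 4 of the highest were Polg (0.95), Tmem134 (0.93), Sphk2 (0.93) and Ormdl3 (0.93). The 5 lowest were then Tmcc1 (-0.95), Taf1 (-0.94), Per2 (-0.93), Fam120b (-0.92) and Chd7 (-0.92), with 3 of the former 5 among them.

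The genes most like Dbp also changed with the libraries used. The highest over 15 mice were Arhgap45 (0.95), Tln1 (0.95), Mcoln1 (0.95), Tom1 (0.95) and Ptp4a3 (0.95), and the lowest Timm8b (-0.97), Gtpbp10 (-0.96), Commd6 (-0.95), Tmem29 (-0.95) and Cdc123 (-0.94). Without FKO1 and FKO2 the highest were Gab1 (0.93), Casp1 (0.90), Zfp523 (0.89), Edrf1 (0.89) and Arhgap45 (0.89), with 1 of the former 5 among them, and the lowest were Ado, Bckdk, Mdp1, Ankrd46 and Rnft1, with 0 of the former 5 among them. Among clock genes, Csnk1d (0.91), the kinase of the PER proteins, and Tef (0.88), a paralog of Dbp, followed Dbp most closely over 15 mice. They stood at places 44 and 121 of 11639 genes. Csnk1d was at 46.6 and 49.8 CPM in FKO1 and FKO2, against 62.7 to 64.7 in FKO3 to FKO5. Tef was at 208 and 214 CPM, against 250.5 to 292. Their r without FKO1 and FKO2 was not computed.

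Of the 16 other clock genes, 1 passed in any comparison in edgeR. Timeless fell in FKO against FWT by 0.57 on the log2 scale (SE 0.16, adjusted p = 0.048), with 3 of the 16 at an unadjusted p under 0.05 and 2 passing in DESeq2, and its call was lost without FKO1 and FKO2 (-0.53, adjusted p = 0.12 in edgeR). In the wild type sex difference, the knockout sex difference, males and the interaction, 0 of 16 passed in edgeR and in DESeq2, with 2 at an unadjusted p under 0.05 in each. Over both sexes 0 passed in edgeR, 5 had an unadjusted p under 0.05 and 1 passed in DESeq2.

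None of the 5 paralogs of members passed in edgeR in females or in the wild type sex difference. Cry2, the partner of Cry1 in repression, had a log2 change of -0.38 in females (SE 0.13, adjusted p = 0.10 in edgeR), Nr1d2 0.030 (SE 0.10), Bhlhe40 -0.28 (SE 0.19), Tef -0.22 (SE 0.13) and Hlf -0.31 (SE 0.16), and of these Cry2 had an unadjusted p under 0.05. With FKO1 and FKO2 left out, Cry2 was at -0.26 (SE 0.13), Tef at -0.095 (SE 0.11) and Bhlhe40 at -0.14 (SE 0.21). In the wild type sex difference Bhlhe40, the paralog of Bhlhe41, was at -0.13 (SE 0.22, adjusted p = 0.81 in edgeR), where Bhlhe41 was at -1.81. Bhlhe40 was also more abundant, at 165 ± 22.2 CPM in FWT (SD, n = 3) and 181 ± 35.97 in MWT (SD, n = 3).

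Feeding, glucocorticoids and temperature act on the liver clock, and genes that answer to these signals were listed for that reason. Of 14 feeding genes, Pnpla3, a lipase of lipid droplets induced by refeeding, was higher in FWT than in MWT (log2 fold change 3.62, adjusted p = 0.047 in edgeR) and in MKO than in MWT (4.11, adjusted p = 0.049). In males Pdk4, a kinase raised in fasting, rose too (1.51, adjusted p = 0.016), and over both sexes Pck1, a gluconeogenic enzyme, fell (-0.71, adjusted p = 0.037). Of the 14 feeding genes, 11 had estimates above 0 in males (median 0.48) and 11 over both sexes (median 0.43). An unadjusted p under 0.05 was held by 7 in males (11.9% of all genes) and 6 over both sexes (19.4%). DESeq2 called 3 in males (2.83%) and 4 over both sexes (7.04%). Of 8 glucocorticoid genes 1 passed in the wild type sex difference, Dusp1, which was lower in FWT (-1.21, adjusted p = 0.040). There 6 of the 8 had estimates above 0 (median 0.39). In females, in males and over both sexes 0 of the 8 passed in edgeR. Estimates above 0 were 1 of 8 in females (median -0.49), 1 in males (-0.70) and 0 over both sexes (-0.49). Over both sexes 4 had an unadjusted p under 0.05 (19.4% of all genes) and 1 passed in DESeq2 (7.04%). Of 9 heat shock and temperature genes, Hspa1b rose in females (0.93, adjusted p = 0.033) and over both sexes (0.75, adjusted p = 0.021), Hspa1a over both sexes (1.13, adjusted p = 0.023), and Rbm3, an RNA-binding protein induced by cold, in females (0.55, adjusted p = 0.040). Leaving out FKO1 and FKO2 ended both calls of Pnpla3, in the wild type sex difference (3.62, adjusted p = 0.057 in edgeR) and in males (4.10, adjusted p = 0.061). It also ended those of Hspa1b (0.78, adjusted p = 0.11) and Rbm3 (0.33, adjusted p = 0.12) in females and of Pck1 over both sexes (-0.70, adjusted p = 0.060). Hspa1a and Hspa1b still passed over both sexes (1.10 and 0.68). In females the same comparison in which Per3 fell had Alas2 higher (2.56, adjusted p = 9.34e-06 in edgeR), with red cell sums of 76.8 to 546 CPM in FWT and 349.7 to 477.8 in FKO. The part of these genes in the levels of members was not tested.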

How the data were processed

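The authors isolated total liver RNA, depleted it of ribosomal RNA, prepared TruSeq libraries and sequenced them as read pairs on a NovaSeq6000, with a further run for libraries short of reads. Reads were trimmed (Trimmomatic 0.36), aligned to GRCm38 (STAR) and summed by gene (HTSeq, 0.6.0 per the labels), and the authors deposited raw counts with no normalization. Each library was read under its mouse's label. Counts of all genes that passed edgeR's filter were fitted with edgeR 4.0.16 (R 4.3.3, quasi-likelihood, TMM, group as the only term), with Benjamini-Hochberg adjustment over 17655 genes and a call at an adjusted p of 0.05. Levels are CPM scaled by TMM, and levels per kilobase use exon lengths of GENCODE M21. Correlations use log2 CPM with a prior count of 2. DESeq2 1.42.0, other scalings and filters, and fits without each mouse were the alternatives. The members, lists of other clock genes, clock output, feeding, glucocorticoid, heat shock and cell type genes were chosen with earlier results of these data known. Members, called or paralogous list genes and the 5 genes most and least like Arntl and Dbp are named. Mice are separate animals, and total counts of 27799061 to 78624766 set the precision, which is lowest for Npas2.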

Additional observations from a re-analysis of the deposited data

Results flagged for a closer look

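Among 20 sets of values examined (each of the 10 members in the 5 FKO and in the 4 MKO mice), 2 held a mouse far from the others of its group, by Dixon's ratio of the gap to the range at its 95% critical value, and chance gives about 1 in 20 such sets. Per1 was at 28.8 CPM in MKO4, where the next mouse was at 15.9 CPM, a ratio of 0.867 against a critical value of 0.829. Per2 was at 22.01 CPM in MKO3, where the next mouse was at 44.8 CPM, a ratio of 0.889. MKO3 also held the highest Arntl of all 15 mice, at 3.57 CPM.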

How the results depend on the processing

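The call of Bhlhe41 in the wild type sex difference held under every change of scaling, filter or tool that was tried, and that of Per3 in females under all of these but a minimum log2 fold change of 1.5. Fitting only the groups compared gave 2 members in the wild type sex difference. In females no filter gave 2 members and a minimum log2 fold change of 1.5 gave 0. The interaction had 1 member by DESeq2 and with no filter, and the average over both sexes 1 by DESeq2. All genes called moved by at most 1.5 times in the wild type fit of only its groups. The same held in females and the interaction with no filter. The main counts there were 860, 1008 and 343 of 17655 genes (4.87%, 5.71% and 1.94%). With 1 mouse left out, members called ran from 0 to 1 in the wild type sex difference, in females and in the interaction. Leaving out FKO1 and FKO2, chosen after seeing the data, gave 2 members in females (4.47% of all genes) and 1 in the interaction (2.39%). All genes called were then 1574 in the wild type and 30 in the knockout sex difference, 477 in males and 1101 over both sexes.

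All genes called, in the order wild type sex difference, knockout sex difference, females, males, interaction and both sexes, were 860, 48, 1008, 250, 343 and 729. With a minimum log2 fold change of 1.5 they were 319, 25, 212, 102, 192 and 94. DESeq2 gave 456 in the knockout sex difference, 1536 in females, 499 in males, 594 in the interaction and 1243 over both sexes. With no filter they were 313 in the knockout sex difference and 411 in males. Fitting only the groups compared gave 26 in the knockout sex difference, 457 in females and 422 in males. With 1 mouse left out the counts ran from 541 to 1096, 26 to 109, 413 to 1538, 100 to 331, 242 to 393 and 353 to 1017. The cause of these changes was not tested.

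Same-numbered mice of different groups had r of their deviations from -0.19 to 0.14 (19 pairs, median -0.023), against a median of 0.017 over 64 other pairs. The numbers were therefore not taken as pairs, though such correlations over all genes cannot exclude a weak pairing. A replicate block gave 165 genes in males, moved no other count by over 1.5 times, and turned the estimates of Bhlhe41 in the knockout sex difference (-0.40) and over both sexes (-0.26), of Per2 over both sexes (0.079) and of Per3 in males (-0.032), none of which passed in either fit.

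Estimates that changed sign elsewhere passed in neither fit. Per3 in males was at -0.0019 with DESeq2 size factors, -0.019 with total counts, -0.0020 in DESeq2 and -0.028 with no filter, and Dbp in the knockout sex difference was at 0.012 with total counts. Without FKO1 and FKO2, Clock (-0.052), Cry1 (-0.036) and Dbp (0.19) turned in the knockout sex difference, Nr1d1 (0.10) in the interaction and Clock (-0.0053) over both sexes. With 1 mouse left out, estimates that turned ran from -0.23 to 0.49 for Per1 in the wild type sex difference, in the knockout sex difference from -0.084 to 0.28 for Npas2, -0.11 to 0.20 for Cry1, -0.16 to 0.065 for Dbp and -0.38 to 0.24 for Bhlhe41, in females from -0.41 to 0.12 for Arntl and -0.41 to 0.31 for Per1, in males from -0.13 to 0.26 for Npas2, -0.084 to 0.091 for Per3, -0.074 to 0.24 for Cry1 and -0.12 to 0.015 for Dbp, in the interaction from -0.096 to 0.62 for Per1 and -0.47 to 0.057 for Nr1d1, and over both sexes from -0.16 to 0.071 for Per2 and -0.15 to 0.16 for Bhlhe41.

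For Arntl with 1 mouse left out, r ran from -0.87 to -0.76 with Per1, -0.91 to -0.82 with Per2, -0.89 to -0.66 with Per3, 0.56 to 0.84 with Clock, -0.73 to -0.51 with Cry1, -0.44 to -0.25 with Dbp, -0.067 to 0.32 with Nr1d1, -0.14 to 0.16 with Npas2 and -0.32 to 0.068 with Bhlhe41. Clock passed without FKO1, FKO4 or MWT2 and Cry1 without FWT2, FWT3 or MKO2. With group means left in, Per3 was at -0.28, and without FKO1 and FKO2 Clock was at 0.84. Npas2, with 3 to 14 counts, limits any statement on that gene.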
